A study of Homo sapiens with 2 samples.

Results

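The protein tyrosine phosphatases (PTPs) and dual-specificity phosphatases (DUSPs) formed a group of 57 genes among the 19775 genes measured in HCC4006 and HCC4006ER cells. Members were chosen by symbol alone: PTPR followed by a letter, PTPN or DUSP followed by a number, and the PTP4A genes, with DUSP4 and DUSP6 left out. They were read by 150 of the 41097 probe sets that had a single gene symbol. By class, there were 17 receptor-type PTPs, 17 non-receptor PTPs, 3 PRL phosphatases (the PTP4A genes), 8 MAP kinase phosphatases and 12 atypical DUSPs.

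HCC4006 is a human non-small cell lung cancer (NSCLC) line whose EGFR gene carries an exon 19 deletion. It is labelled erlotinib sensitive with a wildtype phenotype, and erlotinib is an inhibitor of the EGFR tyrosine kinase. HCC4006ER is its erlotinib-resistant derivative, obtained by growth in rising erlotinib concentrations and labelled with an EMT (epithelial-mesenchymal transition) phenotype. It is the selected population and not 1 clone. Both lines carry the same EGFR deletion, both were grown for 48 hours in RPMI medium with serum, and no further treatment is named for either. For each line 3 RNA preparations were mixed and hybridized to 1 Affymetrix array, so there is no replicate, no error between replicates and no test, and each difference below is a value for this pair of arrays. The labels give 100 ng of RNA for labelling.

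PTPs remove phosphate from tyrosine and so oppose tyrosine kinases such as EGFR, using a cysteine in a conserved catalytic loop. Receptor-type PTPs cross the membrane and many carry adhesion-like outer domains, whereas non-receptor PTPs are directed by SH2, FERM or other domains. DUSPs act on both phosphotyrosine and phosphothreonine. The MAP kinase phosphatases among them switch off ERK, JNK and p38 kinases, and several are themselves transcribed in response to those kinases.

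The authors deposited 1 MAS5 signal per probe set on a linear scale, and each array had a mean of 500.1 after 2% of the probe sets were trimmed at each end. Median signals were 63.4 for the array with the label HCC4006 and 57.7 for that with the label HCC4006ER, and setting both medians equal would add 0.14 to every log2 fold. Where a gene had several probe sets, the one whose log2 signals had the highest mean stood for it. As a background level, 155 probe sets for olfactory and bitter taste receptors, genes of other tissues, were ranked on each array. Their 95th percentile came to 127 on the HCC4006 array and 155 on the HCC4006ER array, and a signal over it was taken as above background. Signals of different probe sets are not comparable between genes, so folds are taken within a probe set, and the summed signals of marker lists below are compared only between the arrays.

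The epithelial identity of the cells was checked first. All 8 epithelial markers (KRT7, KRT8, KRT18, KRT19, EPCAM, CDH1, CLDN7 and ST14) were above background on both arrays, with summed signals of 91535 and 91894. Markers of the EMT label went different ways. CDH1, which encodes E-cadherin, read 10469 on the HCC4006 array and 11041 on the HCC4006ER array, and ZEB1, a repressor of CDH1, was not above background on either (42.5 and 53.1), nor was any of its 4 probe sets. The mesenchymal genes CDH2 (1181 and 2419) and VIM (5926 and 9057) were higher on the HCC4006ER array. Of 6 fibroblast markers only COL1A1 was above background, at 591 and 965, with summed signals of 816 and 1150 for the list. The arrays are therefore named by their labels throughout, and every direction below rests on those labels.

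Of the 57 phosphatase genes, 40 were above background on at least 1 array. Past the 1.5-fold size that the study used, 8 of the 40 (20%) were higher on the HCC4006ER array and 1 (2.5%) was lower. Among all 10916 genes above background, 861 (7.89%) were higher and 1050 (9.62%) were lower. The 8 higher members were PTPRB, DUSP1, PTPRR, DUSP5, DUSP8, PTPRM, PTPN14 and PTPN1, and the lower member was PTPN18. The median log2 fold of the 40 members was 0.11, with a range from -0.62 to 1.70, against a median of -0.01 over all genes. Under median scaling of the arrays, 14 members were higher and 0 lower, and over all genes the counts became 1356 higher and 678 lower, which moved the share of called genes that were higher from 45.1% to 66.7%. In a bulk sample, fewer cells that express a gene and less of its RNA per cell cannot be told apart.

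**Figure D1:**
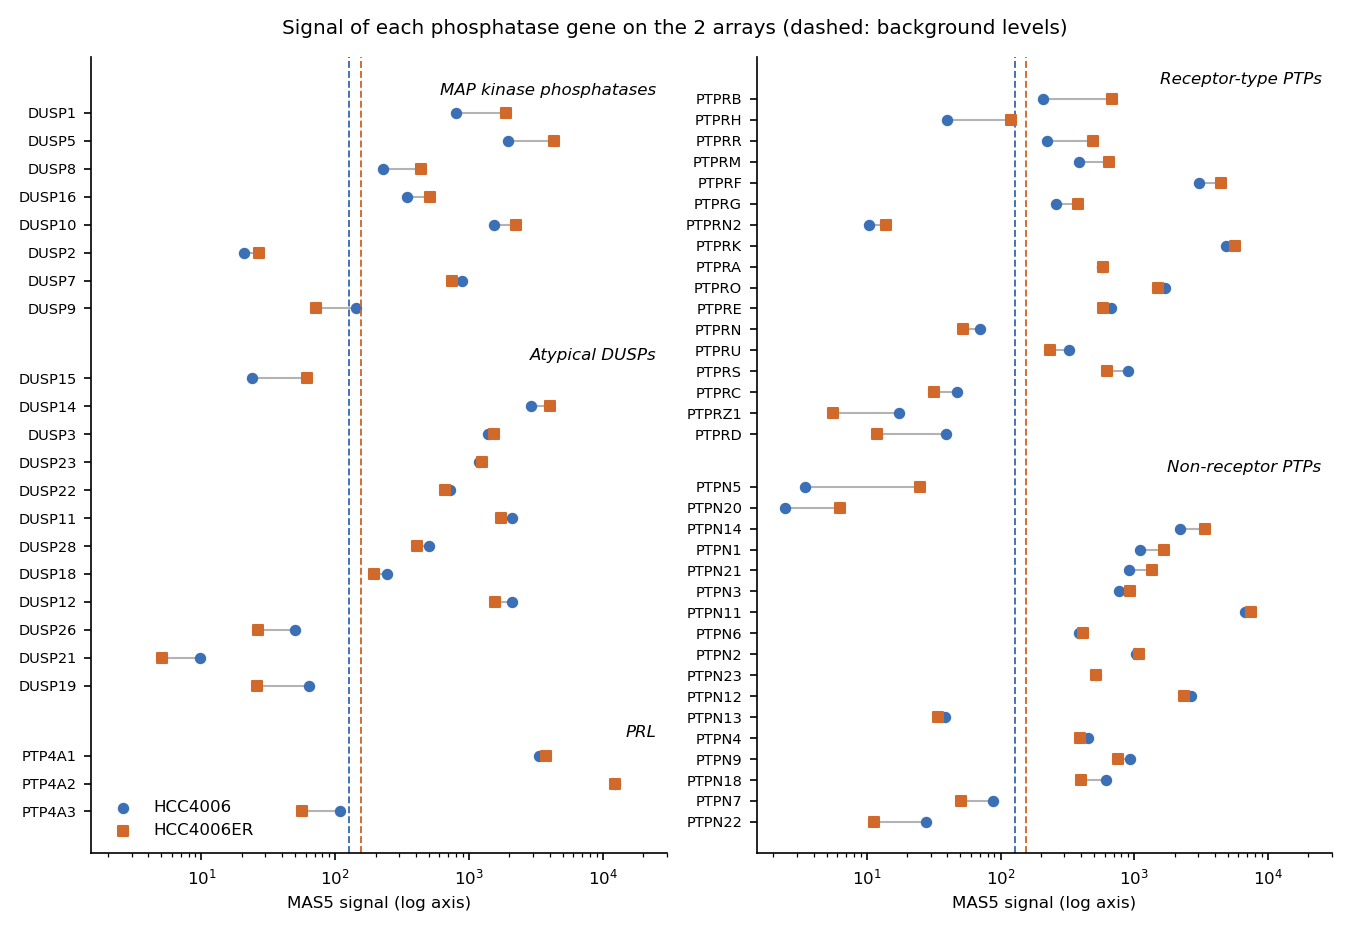
MAS5 signal of the probe set read for each of the 57 phosphatase genes, on a log axis without further unit, with circles for the array labelled HCC4006, squares for the array labelled HCC4006ER and dashed lines at the background levels of 127 and 155. PTPRB, DUSP1, PTPRR and DUSP5 show the widest gaps among genes to the right of both lines, and 17 genes lie under the lines.

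The MAP kinase phosphatases held 3 of the 8 higher members, DUSP1, DUSP5 and DUSP8. Of 8 genes, with DUSP4 and DUSP6 left out of the class, 7 were above background and none was lower past 1.5-fold. The class median log2 fold was 0.58. DUSP1, a nuclear phosphatase of p38, JNK and ERK, read 804 on the HCC4006 array and 1883 on the HCC4006ER array, a 2.34-fold difference (log2 fold 1.23). Its other probe sets did not repeat that difference above background: a second read 150 and 137, the latter under background, and the third read 29.1 and 76.8, both under background. DUSP1 is thus read by a single probe set that was above background on both arrays.

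DUSP5, a nuclear phosphatase with a preference for ERK and a known ERK-induced gene, read 1961 on the HCC4006 array and 4305 on the HCC4006ER array, which is 2.20-fold higher. It has 1 probe set, so no second reading of it exists. DUSP8, which acts on JNK and p38, read 227 and 434, a 1.91-fold difference. A second DUSP8 probe set, of a design that can cross-hybridize, read 155 and 396 (log2 fold 1.35), so both DUSP8 probe sets were higher on the HCC4006ER array.

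The remaining MAP kinase phosphatases lay within 1.5-fold or were dim. DUSP10, a phosphatase of JNK and p38, read 1544 and 2234 (log2 fold 0.53), and its second probe set read 1011 and 1903 (log2 fold 0.91). DUSP16, which also acts on JNK and p38, read 344 and 514 (log2 fold 0.58), just under the threshold at 1.49-fold. DUSP7, a cytoplasmic ERK phosphatase, read 880 and 749 (log2 fold -0.23).

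Another cytoplasmic ERK phosphatase, DUSP9, read 143 on the HCC4006 array and 72.1 on the HCC4006ER array. The second value is under background, and the first lies below the background level of the other array, so no fold is given. In the median over the 40 members its dim signal was raised to background, which puts it at 0.11, against a measured log2 ratio of -0.99. By measured ratios the median of the 40 was 0.09. With background levels from 127 receptor probe sets, without pseudogenes, DUSP9 counted as lower past 1.5-fold. DUSP2, a nuclear phosphatase known from activated leukocytes, was not above background, at 20.7 and 27.1.

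The stretches just upstream of DUSP1 and DUSP8 are shown because both genes were higher and both hold the cAMP response element TGACGTCA, and that of PTPRR because it was higher and holds none of the motifs searched. Each is the 250 bases before the RefSeq start on GRCh38.p14, printed 5′ to 3′ in the direction of transcription, and all of these genes lie on the minus strand. Capitals mark matches on either strand to TGACGTCA, the AP-1 site TGANTCA, the E-boxes CACCTG and CACGTG, the TATA box TATAAA and the GC box GGGCGG. The positions are chr5:172771196-172771445 for DUSP1, chr11:1572272-1572521 for DUSP8 and chr12:70754609-70754858 for PTPRR.
DUSP1: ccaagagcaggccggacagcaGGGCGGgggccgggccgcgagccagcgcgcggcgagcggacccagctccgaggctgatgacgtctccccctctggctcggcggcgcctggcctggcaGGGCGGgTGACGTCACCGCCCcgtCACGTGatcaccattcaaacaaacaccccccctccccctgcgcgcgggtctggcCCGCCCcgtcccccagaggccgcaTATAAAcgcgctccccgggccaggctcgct
DUSP8: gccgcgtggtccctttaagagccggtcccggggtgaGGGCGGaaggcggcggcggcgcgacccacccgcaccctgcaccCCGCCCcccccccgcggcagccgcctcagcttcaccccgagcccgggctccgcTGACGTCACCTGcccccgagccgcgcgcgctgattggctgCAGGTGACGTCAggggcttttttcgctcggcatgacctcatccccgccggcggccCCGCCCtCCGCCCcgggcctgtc
PTPRR: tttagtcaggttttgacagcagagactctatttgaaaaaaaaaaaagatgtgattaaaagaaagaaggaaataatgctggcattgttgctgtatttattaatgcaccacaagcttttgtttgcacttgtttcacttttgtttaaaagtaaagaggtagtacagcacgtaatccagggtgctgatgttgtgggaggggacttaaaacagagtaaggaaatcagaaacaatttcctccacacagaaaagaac

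In DUSP1, counted back from the RefSeq start, TGACGTCA begins at -125 and directly abuts a GC box at -117. The E-box CACGTG begins at -108 and the TATA box at -30. In DUSP8, TGACGTCA occurs at -118 and again at -74, and each copy overlaps a CACCTG match by a pair of bases. Over all measured genes with such a stretch, 2.38% of 15382 hold TGACGTCA, and 4 of the 50 members with an entry did (DUSP1, DUSP8, PTPRS and PTPRU). PTPRS and PTPRU read lower on the HCC4006ER array than on the HCC4006 array. Among the higher members, DUSP5 and PTPRB had no such stretch, so no motif was searched in them.

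Other motifs were found in 0 to 34 members. CACCTG was in 7 of 50 members and 16.8% of all genes, CACGTG in 3 and 7.83%, TATAAA in 2 (DUSP1 and PTP4A1) and 8.32%, and TGANTCA in 1 and 5.03%. GGGCGG was in 34 of 50 members (68%) and 56.3% of all genes. The CArG box of serum response factor was in 0 members and 1.14% of all genes. A match is a letter pattern in this window, not a measured binding site.

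Among receptor-type PTPs, 11 of 17 were above background, 3 were higher past 1.5-fold and none was lower, with a median log2 fold of 0.23. PTPRB, known as the vascular endothelial PTP that acts on TIE2 and VE-cadherin complexes, read 208 on the HCC4006 array and 676 on the HCC4006ER array. This 3.25-fold difference (log2 fold 1.70) was the largest of any member above background. A second PTPRB probe set read 182 and 249 (log2 fold 0.45), so both probe sets above background were higher but by different amounts. Of 6 endothelial markers only PECAM1 was above background, at 244 and 229, and VWF, CDH5, KDR, TEK and ESAM were under background on both arrays, with a summed signal of 356 and 309 for the list.

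PTPRR, which binds ERK and p38 through a kinase interaction motif and dephosphorylates them, read 223 and 494, a 2.21-fold difference (log2 fold 1.15). Its second probe set read 158 and 335 (log2 fold 1.09), close to the first. PTPRM, a receptor that binds its own kind on neighbouring cells, read 385 and 642, a 1.67-fold difference. Its second probe set read 269 and 340 (log2 fold 0.34), within 1.5-fold. Both probe sets of each of these genes were thus higher on the HCC4006ER array.

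PTPRF and PTPRG lay just under the threshold on the probe set read for them and past it on others. PTPRF, or LAR, a receptor at cell-matrix and cell-cell contacts, read 3024 and 4476 (1.48-fold), while 2 further probe sets had log2 folds of 1.02 and 0.92. PTPRG, a receptor with a carbonic anhydrase-like outer domain, read 260 and 381 (1.47-fold), and its second probe set above background on both arrays read 189 and 450 (log2 fold 1.25). PTPRK, a relative of PTPRM, read 4828 and 5651 (log2 fold 0.23). PTPRA, which activates SRC by removing an inhibitory phosphate, read 568 and 578 (log2 fold 0.03).

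Lower values were seen for 4 receptor-type PTPs, all within 1.5-fold. PTPRS, a receptor for heparan sulfate proteoglycans related to PTPRF, read 896 and 628 (log2 fold -0.51), and its second probe set had a log2 fold of -0.47. PTPRU, another relative of PTPRM, read 326 and 235 (log2 fold -0.47). PTPRE, the closest relative of PTPRA, and PTPRO, a receptor known from kidney podocytes, had log2 folds of -0.22 and -0.18. Only 1 of the 3 PTPRO probe sets was above background, at 1706 and 1503.

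The other 6 receptor-type PTPs, PTPRC, PTPRD, PTPRH, PTPRN, PTPRN2 and PTPRZ1, were not above background on either array. PTPRC, the leukocyte common antigen CD45, read 46.9 and 31.8. Of 7 leukocyte markers measured, CD79A and CORO1A were above background on both arrays and the summed signal was 817 and 659. PTPRH, a receptor of epithelia, read 39.5 and 119, both under the background level of their array.

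**Figure D2:**
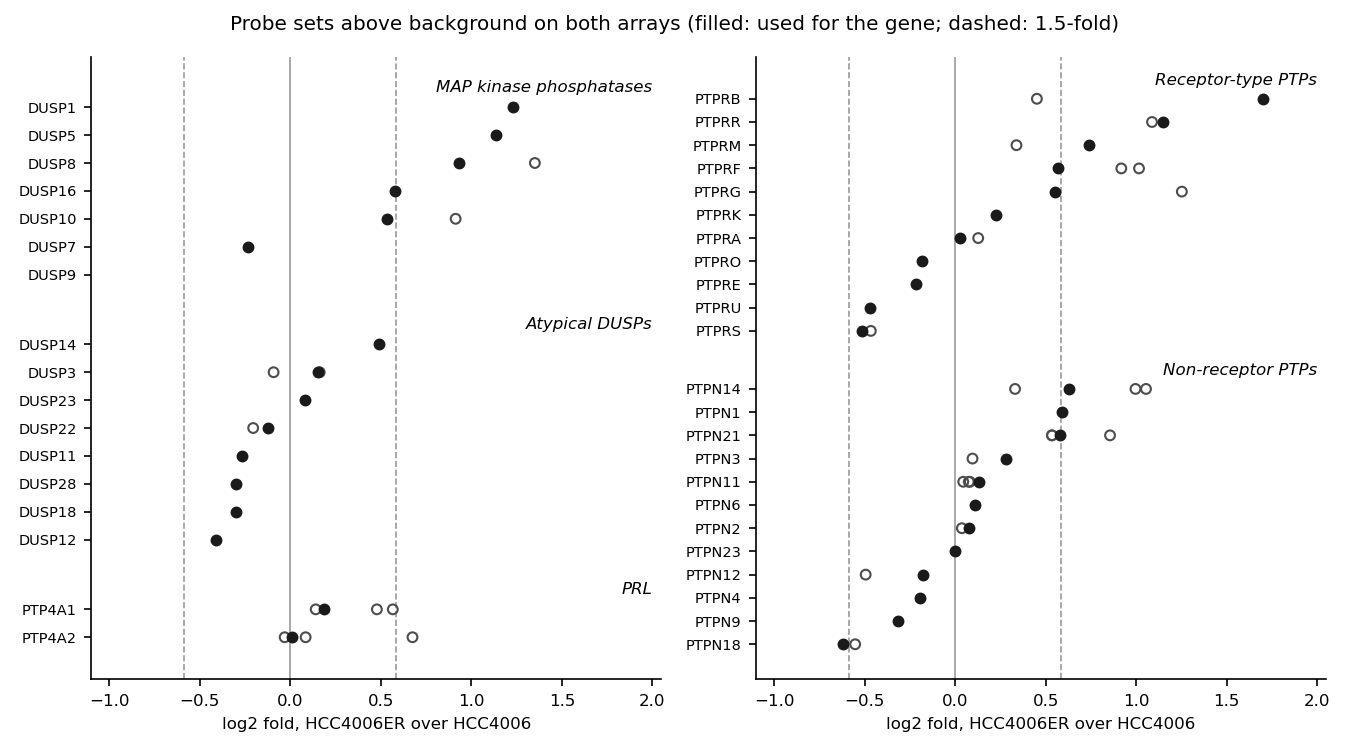
Log2 fold of HCC4006ER over HCC4006 for each probe set above background on both arrays, by gene and class, with a filled point for the probe set read for the gene, open points for its other probe sets and dashed lines at 1.5-fold. The points of PTPRR and PTPN18 lie close together, those of PTPRB are 1.70 and 0.45, and DUSP9 has no point because it was under background on the HCC4006ER array.

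Non-receptor PTPs were split: of 12 above background out of 17, 2 were higher past 1.5-fold, 1 was lower and 9 lay within, with a median log2 fold of 0.09. PTPN14, a FERM-domain phosphatase that binds and restrains the transcriptional coactivator YAP, read 2180 and 3370, a 1.55-fold difference. Its 4 probe sets were all higher, with log2 folds from 0.33 to 1.05. PTPN21, its closest relative, read 910 and 1358 (1.49-fold), and its 4 probe sets above background had log2 folds from 0.53 to 0.86. All 8 probe sets above background of this FERM pair were therefore higher on the HCC4006ER array.

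PTPN1, or PTP1B, an endoplasmic reticulum phosphatase of the insulin receptor and EGFR, read 1106 and 1665, a 1.51-fold difference just past the threshold. Its 3 other probe sets were under background. PTPN18, a phosphatase known to act on HER2, read 614 on the HCC4006 array and 400 on the HCC4006ER array, 1.54-fold lower. A second PTPN18 probe set read 523 and 357 (log2 fold -0.55), in the same direction and within 1.5-fold.

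PTPN11, or SHP2, which RAS and ERK signaling downstream of EGFR requires, read 6737 and 7388 (log2 fold 0.13). On both arrays 4 of its probe sets were above background, with log2 folds from 0.04 to 0.13, a narrow range within 1.5-fold. Another PTPN11 probe set went the other way, at 170 and 91.8, the latter under background, and was at least 1.10-fold lower. The other SH2-domain phosphatase, PTPN6 or SHP1, known from blood cells and some epithelia, read 382 and 412 (log2 fold 0.11). PTPN12, or PTP-PEST, a regulator of paxillin and p130Cas at focal adhesions, read 2667 and 2356 (log2 fold -0.18), and its second probe set had a log2 fold of -0.49.

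The rest of the class lay within 1.5-fold or under background. PTPN3, a FERM and PDZ protein, had a log2 fold of 0.28 and its relative PTPN4 one of -0.20. PTPN2, a phosphatase of JAK and STAT proteins, had 0.08, PTPN23, an endosomal sorting protein, had 0.00, and PTPN9 had -0.31. The 5 members not above background were PTPN5, PTPN7, PTPN13, PTPN20 and PTPN22, of which PTPN7 and PTPN22 are known from lymphocytes and PTPN5 from neurons. None of the 5 neural markers was above background on either array.

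PRL phosphatases and atypical DUSPs held no member past 1.5-fold. PTP4A2, a small prenylated membrane phosphatase, read 12311 and 12373 (log2 fold 0.01), and its 4 probe sets ranged from -0.03 to 0.67. PTP4A1, its relative, read 3316 and 3776 (log2 fold 0.19), and its 4 probe sets above background were all higher, from 0.14 to 0.57. PTP4A3 was not above background, at 109 and 56.0.

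Of 12 atypical DUSPs, 8 were above background and their median log2 fold was -0.20. DUSP14, a small phosphatase that acts on the TAK1 partner TAB1, read 2889 and 4059 (1.41-fold higher) and was the only one of them close to the threshold. DUSP3, or VHR, which acts on ERK and JNK, had a log2 fold of 0.15 with 1 of its 3 probe sets at -0.09, and DUSP23 had 0.08. DUSP12 read 2083 and 1569 (log2 fold -0.41). The RNA 5′-triphosphatase DUSP11 had -0.27, DUSP18 and DUSP28 both had -0.30 and DUSP22, a regulator of JNK and T-cell receptor signaling, had -0.12. DUSP15, DUSP19, DUSP21 and DUSP26 were not above background.

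**Figure D3:**
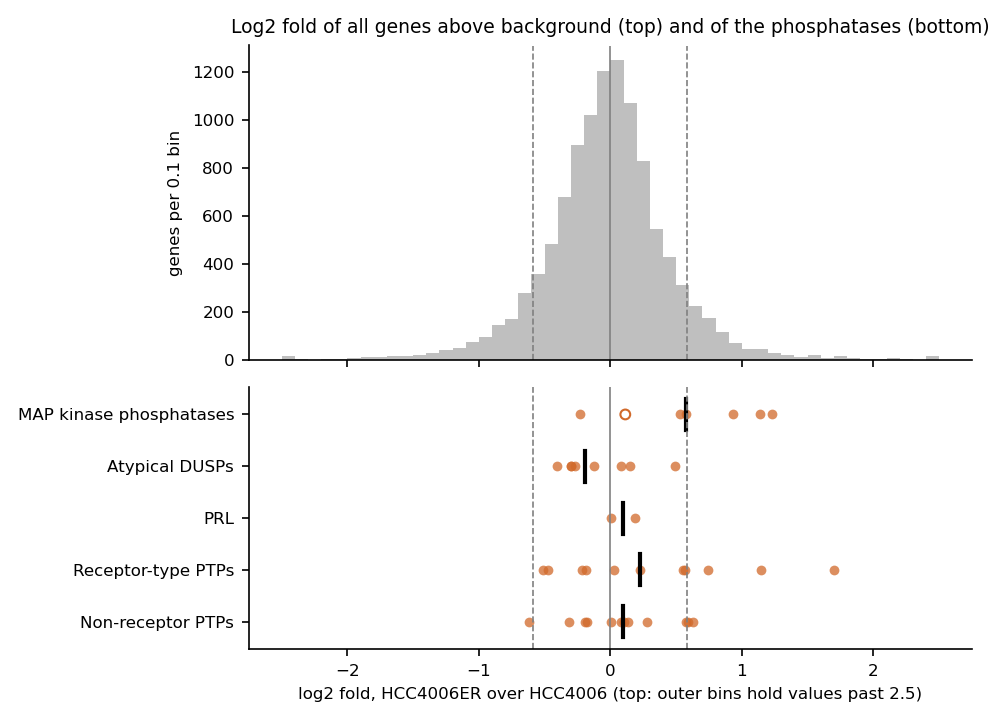
Distribution of the log2 fold of HCC4006ER over HCC4006 over all 10916 genes above background (top, genes per bin of 0.1) and the same quantity for the 40 phosphatases above background by class (bottom, 1 point per gene, bar at the class median), with dashed lines at 1.5-fold. The open point is DUSP9 with its dim signal raised to background, and the MAP kinase phosphatase median is 0.58 while that of the atypical DUSPs is -0.20.

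In all, 17 members were not above background, with signals from 2.44 to 109 on the HCC4006 array and from 5.04 to 119 on the HCC4006ER array. At these levels ratios carry little: 49.7% of the receptor probe sets that set the background also lay past 1.5-fold by their measured ratio. Of the 39 members above background on both arrays, 25 were higher and 14 lower at any size, beside 4796 and 5127 among the 9923 genes above background on both. Just under the threshold, between 1.4-fold and 1.5-fold, lay 6 members that were higher (DUSP16, PTPN21, PTPRF, PTPRG, DUSP10 and DUSP14) and 1 that was lower (PTPRS), beside 339 and 374 among all genes.

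Probe sets of 1 gene gave a measure of disagreement within the arrays. Over the 20 members with several probe sets above background on both arrays, the log2 fold varied between probe sets with a pooled SD of 0.27, against 0.25 over 4625 genes. For 18 of the 20 members all such probe sets lay on the same side of 0, 14 higher and 4 lower, and for DUSP3 and PTP4A2 they lay on both sides. No member had probe sets past 1.5-fold in opposite directions. These probe sets share the RNA mixture and the array, so the SD leaves out variation between cultures and between arrays.

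For the kinases that MAP kinase phosphatases act on, and their activating kinases, the values went in both directions. Of 14 above background, MAPK8 was higher past 1.5-fold, MAPK3 and MAP2K6 were lower and 11 were neither, with a median log2 fold of -0.10. The 11 include MAPK11, at 150 and 76.0, for which no fold is given because the bound fell under 1. In the median its dim signal was raised to background. MAPK3, the ERK1 gene, read 784 on the HCC4006 array and 316 on the HCC4006ER array, 2.48-fold lower. The MAPK3 probe set is of a design that can cross-hybridize. MAPK8, the JNK1 gene, read 970 and 1637 (1.69-fold higher). MAP2K6, an activator of p38, read 280 and 81.0, the latter under background, and was at least 1.81-fold lower.

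Ligands and surface partners of receptor-type PTPs differed in both directions. Of 10 above background, 3 were higher past 1.5-fold and 4 were lower. NID1, a basement membrane protein that binds PTPRF with laminin, read 425 and 1209 (2.84-fold higher), and MDK, the growth factor midkine that binds PTPRZ1, read 814 and 1325 (1.63-fold higher). IL1RAPL1, a partner of PTPRD, read 194 and 535 (2.76-fold higher), while its partner PTPRD was not above background.

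Lower partners included the syndecan SDC2, which binds PTPRJ, a receptor not analysed here, at 361 and 45.2 (at least 2.33-fold lower), and IL1RAP, a second interleukin receptor family partner of PTPRD, at 684 and 402 (1.70-fold lower). THBS1, which encodes thrombospondin and is also a ligand of PTPRJ, read 8707 and 5556 (1.57-fold lower). CNTN1, a contactin bound by PTPRZ1, read 236 and 33.0 (at least 1.53-fold lower). The median of this list was -0.11.

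Adaptors and scaffolds bound by PTPN6, PTPN11 or PTPN12 mostly lay within 1.5-fold, 10 of 12 above background, with a median of 0.10. SIRPA, a membrane receptor that recruits both SH2-domain phosphatases, read 881 and 1513 (1.72-fold higher). SHC1, an adaptor of EGFR, read 5195 and 3354 (1.55-fold lower).

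Phosphatases outside the named classes, taken as 38 measured genes of the wider superfamily and the EYA family, had 33 above background, 2 higher and 4 lower past 1.5-fold, with a median log2 fold of 0.09. EYA2, a phosphatase and transcriptional coactivator, read 511 and 171 (2.99-fold lower), and the cofilin phosphatase SSH3 read 827 and 390 (2.12-fold lower). The tensin TNS1 read 250 and 469 (1.88-fold higher), and MTMR4, a lipid phosphatase of endosomes, read 781 and 1357 (1.74-fold higher). The other 2 lower genes were MTMR11 and the cell cycle phosphatase CDC25C, 1.58-fold and 1.55-fold lower.

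**Figure D4:**
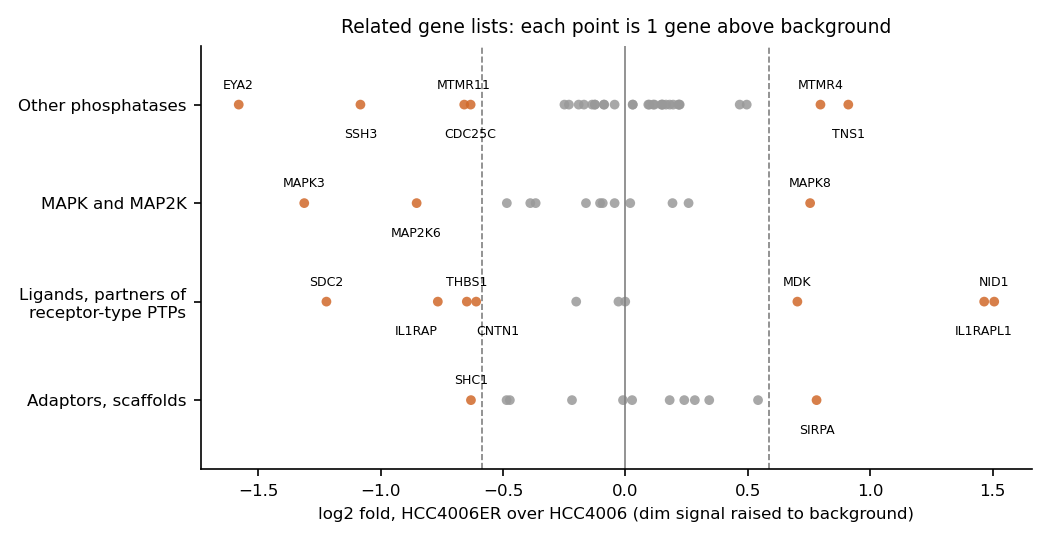
Log2 fold of HCC4006ER over HCC4006 for the genes above background in 4 related lists, 1 point per gene, with genes past 1.5-fold in colour and named and dashed lines at 1.5-fold. MAPK11 has no point because no fold is given for it. A dim signal is raised to background, which applies to MAP2K6, SDC2 and CNTN1 among the named genes, and NID1 and IL1RAPL1 lie farthest to the right at 2.84-fold and 2.76-fold higher.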

How the data were processed

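For each cell line, 3 RNA preparations were mixed and hybridized to a single Affymetrix HG-U133 array. The deposited values are MAS5 signal intensities, 1 for every probe set, linear and with no detection calls. GCOS 1.4 is named besides MAS5 in the submitters' processing notes. Array gene names came from the platform annotation, which gave exactly 1 symbol for 41097 of 54675 probe sets. The 1801 with several symbols and the 11777 without an entry were set aside, and genes without a usable probe set were not analysed here. All 57 member symbols were RefSeq symbols of GRCh38.p14, and 50 members had an upstream sequence there.

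Each gene was represented by the probe set whose mean log2 signal was highest. The background level was a 95th percentile, taken over probe sets of olfactory and bitter taste receptors chosen by a symbol pattern. That pattern also took 28 pseudogene probe sets, the highest at 1541 on the HCC4006 array. A dim signal was raised to its level, and a fold against it is given as at least that size. No fold is given where both signals were dim or where this bound fell under 1. The log2 fold is HCC4006ER over HCC4006, with the 1.5-fold size of the study's methods.

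Named in full, by rule, were members past 1.5-fold and the brightest member of each class, and from each other list up to 4 genes past 1.5-fold with the largest fold. The members and lists were chosen with earlier results of these data known. ZEB1, CDH2, VIM, the other members named with signals and list genes beyond the first 4 were added after their values were seen. The scripts were checked on simulated data. Precision is limited by the number of arrays, which is 1 per line, and no p-value was computed. Alternatives were other scalings, probe set choices, background levels, filters and a 2-fold threshold. The authors' pathway enrichment was not repeated. Calculations used pandas 2.3.3, numpy 2.4.6 and scipy 1.17.1 under Python 3.11.15, and figures matplotlib 3.10.9.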

Additional observations from a re-analysis of the deposited data

How the results depend on the processing

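Counts of members past 1.5-fold were 8 higher and 1 lower as reported. Median scaling gave 14 higher and 0 lower, adding DUSP10, DUSP14, DUSP16, PTPN21, PTPRF and PTPRG, and the members' median log2 fold became 0.25 while that of all genes became 0.12. Taking the probe set with the largest absolute fold gave 13 higher and 1 lower, where 11.7% of all genes were higher and 12.1% lower. A 2-fold threshold left 4 higher (DUSP1, DUSP5, PTPRB and PTPRR) and 0 lower, beside 2.28% and 2.88% of all genes. A background at the 99th percentile, 349 and 599, gave 7 higher and 0 lower of 33, beside 10.7% and 5.40% of all genes. Of these, PTPN6 (382 and 412) counted as higher only because its HCC4006ER signal was raised to 599. Dim signals of all genes were raised by the same rule, so the shares over all genes can hold such calls too. Measured ratios gave 8 higher and 2 lower (DUSP9 and PTPN18), beside 8.47% and 12.5% of all genes. With all 57 members counted by measured ratio, dim ones included, 12 were higher (21.1%) and 10 lower (17.5%), where 2574 and 4550 of all 19775 genes were. Background levels without pseudogenes (96.2 and 91.6, chosen after seeing the data) also gave 2 lower, the same genes, and 8 higher. Among all genes 11.2% were then lower and 7.99% higher. Quantile normalization (8 and 1), centring (10 and 1), averaged probe sets (11 and 1), plain probe set designs where a gene has one (7 and 1) and genes above background on both arrays (8 and 1) stayed within 1.5 times the reported counts. Under these settings the share of all genes ran from 7.70% to 8.36% higher and from 8.40% to 9.69% lower. DUSP1, DUSP5 and PTPRB were higher under all 13 settings, PTPRR and PTPN14 under 12, DUSP8 and PTPN1 under 11, PTPRM under 10, and PTPN18 was lower under 10. DUSP1 is among 8 members without a plain probe set, so that setting reused its reported one. The log2 fold of DUSP1 ran from 0.64, with its probe sets averaged, to 1.36. The average holds its second probe set at 0.05, with the HCC4006ER signal raised to background. By measured ratio that probe set was lower, at -0.13, so the call of DUSP1 under averaging includes a raised signal. For PTPRB the log2 fold ran from 0.95 to 1.84. The 0.95 is a lower bound from the 99th percentile background, where its HCC4006 signal of 208 was raised to 349. No called member changed direction. With 1 array of mixed RNA per line, variation between cultures and between arrays was not measured.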

Other observations

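PTPRB and PTPRR, the members with the largest and the third largest fold, are neighbours in the RefSeq order of protein-coding genes on chromosome 12, and no other members were adjacent. Next to PTPRB on the other side, KCNMB4, a subunit of a potassium channel, read 1343 on the HCC4006 array and 734 on the HCC4006ER array (log2 fold -0.87), and CNOT2 beyond it read 1815 and 1929 (log2 fold 0.09). Next to PTPRR, the tetraspanin TSPAN8 read 227 and 98.2, the latter under background, and LGR5 beyond it was not above background. The genes on either side of the pair were thus not higher past 1.5-fold. These neighbours were looked at after the values of the pair were seen.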
